A study of Mus musculus with 12 samples.

Results

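The 10 genes described here, Lor, Prr9, Sprr1a, Sprr1b, Sprr2k, Lce1f, Lce1g, Lce1h, Kprp and Tchh, belong to the epidermal differentiation complex on mouse chromosome 3. They were 10 of 53801 gene identifiers counted, and they were picked because their RNA was higher in Cebpg knockdown cells than in control cells. The knockdown comparisons are therefore given for them as descriptions with no test. The response to thapsigargin was not used in the choice and was tested, although its libraries are the same ones that the knockdown comparisons used. These tests are therefore not free of the choice. Genes picked for high knockdown DMSO or low control DMSO libraries have thapsigargin changes pushed down in knockdown cells and up in control cells. A choice on the thapsigargin libraries pushes them the other way. The size of either push was not tested.

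The epidermal differentiation complex is a gene cluster whose products build the cornified envelope, the tough protein shell that replaces the plasma membrane of a dying keratinocyte at the skin surface. Loricrin and the small proline-rich (SPRR) and late cornified envelope (LCE) proteins are cross-linked by transglutaminases into that shell, while trichohyalin hardens the inner root sheath of the hair follicle. These genes are known from skin, hair and other squamous epithelia and are not markers of muscle precursors. C2C12, the line studied, is a mouse myoblast line that can fuse into muscle fibres.

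RNA was sequenced after poly(T) selection from 4 groups of 3 libraries. They were Cebpg knockdown cells given thapsigargin for 6 h, Cebpg knockdown cells given DMSO for 6 h, control cells given thapsigargin for 6 h and control cells given DMSO for 6 h. Thapsigargin, dissolved in DMSO, blocks the pump that loads calcium into the endoplasmic reticulum (ER) and is a standard inducer of ER stress. Cebpg, the gene knocked down, codes for C/EBP gamma, a transcription factor that can bind DNA as a pair with ATF4. The titles mark every knockdown library with the same tag, Sh2, and the sources used here do not say what control cells carried in its place. An effect of the knockdown and another lasting difference between the cell populations therefore cannot be told apart. The growth protocol names HeLa cells where the other fields name C2C12.

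Libraries held 29.4 to 47.7 M reads assigned to genes. Levels are given as CPM, each gene's share of a library's gene reads scaled to a fixed total. Cebpg ranged from 5.28 to 6.11 CPM in knockdown thapsigargin libraries, 3.74 to 5.18 CPM in knockdown DMSO libraries, 211.3 to 219.1 CPM in control thapsigargin libraries and 51.5 to 60.6 CPM in control DMSO libraries, as the labels say. The ER stress genes Atf4, Ddit3 and Hspa5 and Cebpg itself, 4 of 4, rose with thapsigargin in both cell populations. In DMSO, knockdown cells had 1 of these 4 up, 2 down and 1 not past the test, and under thapsigargin all 4 were lower in knockdown cells. The rise of Cebpg in knockdown cells did not pass when knockdown DMSO replicate 2 was left out (adjusted p = 0.122), nor when knockdown thapsigargin replicate 1 was (adjusted p = 0.0676). Nothing in the labels says that replicates were separate cultures, so p-values measure the spread between these libraries only.

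All 10 genes passed the filter on low counts, which asks for about 0.289 CPM in at least 3 libraries. Prr9, Sprr1a and Lce1g reached that level in every library of all 4 groups, and Lor, Sprr2k and Lce1f in 3 groups, all but control DMSO for Lor and Lce1f and all but control thapsigargin for Sprr2k. Sprr1b, Lce1h and Kprp reached it only in the 2 knockdown groups, and Tchh only in the 2 thapsigargin groups. These 7 genes were thus tested through the groups where they are high, and their counts of calls are given with that limit. The 10 genes span chr3:92080271-93449077 of GRCm38, 1.37 Mb that hold 85 annotated genes, 55 of them protein-coding. In order along the chromosome they are Lor, Prr9, Sprr2k, Sprr1b, Sprr1a, Lce1f, Lce1g, Lce1h, Kprp and Tchh. Sprr2k and Tchh lie on the plus strand and the other 8 on the minus strand.

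Because the genes were chosen for a shared rise, their promoters are shown first, as the 250 bases before the start that RefSeq annotates (build GRCm38.p6, each read 5′ to 3′ in the direction of the gene). Of the 10 genes 8 matched an entry. Both strands were searched for the AP-1 motif TGANTCA, the C/EBP motif TTGCNNAA, the composite C/EBP-ATF motif TGATGNAA bound by pairs of a C/EBP and an ATF protein, and the letters TATAAA of the TATA box. These motifs were picked with results of these data known. Capitals mark AP-1 and TATA matches in the 5 promoters that hold both:
Lor: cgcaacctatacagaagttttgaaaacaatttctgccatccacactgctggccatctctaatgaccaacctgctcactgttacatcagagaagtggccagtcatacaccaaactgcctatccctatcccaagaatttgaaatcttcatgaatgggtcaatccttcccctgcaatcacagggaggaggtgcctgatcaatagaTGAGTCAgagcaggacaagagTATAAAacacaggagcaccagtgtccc
Prr9: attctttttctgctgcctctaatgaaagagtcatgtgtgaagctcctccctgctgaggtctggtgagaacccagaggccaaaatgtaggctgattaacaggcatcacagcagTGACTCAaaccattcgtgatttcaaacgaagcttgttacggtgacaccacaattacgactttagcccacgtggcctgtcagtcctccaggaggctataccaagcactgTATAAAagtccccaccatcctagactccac
Sprr2k: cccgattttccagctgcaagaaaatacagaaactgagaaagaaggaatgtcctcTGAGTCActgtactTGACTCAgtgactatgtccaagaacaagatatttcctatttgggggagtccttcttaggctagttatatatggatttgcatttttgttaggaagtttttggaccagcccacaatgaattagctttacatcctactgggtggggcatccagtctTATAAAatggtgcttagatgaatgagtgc
Sprr1b: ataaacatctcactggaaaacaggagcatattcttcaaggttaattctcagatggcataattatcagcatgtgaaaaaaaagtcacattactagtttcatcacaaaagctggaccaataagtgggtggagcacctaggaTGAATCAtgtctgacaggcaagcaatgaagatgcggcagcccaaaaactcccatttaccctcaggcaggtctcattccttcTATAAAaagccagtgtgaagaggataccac
Sprr1a: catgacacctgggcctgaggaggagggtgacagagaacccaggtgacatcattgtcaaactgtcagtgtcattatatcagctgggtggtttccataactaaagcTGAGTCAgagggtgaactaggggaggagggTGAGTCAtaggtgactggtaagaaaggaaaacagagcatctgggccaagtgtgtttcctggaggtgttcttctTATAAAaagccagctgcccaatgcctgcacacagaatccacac

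These stretches lie at chr3:92083143-92083392 (Lor), chr3:92123948-92124197 (Prr9), chr3:92438780-92439029 (Sprr1b) and chr3:92485882-92486131 (Sprr1a) on the minus strand and at chr3:92432332-92432581 (Sprr2k) on the plus strand. AP-1 is a pair of FOS and JUN proteins. Its motif stood in 5 of the 8 promoters and in 6.75% of all 32851 RefSeq promoters of the same length. Counted back from the start to the first base of the match, it lay at 48 bases in Lor, 138 in Prr9 and 111 in Sprr1b. Sprr2k had matches at 196 and 182 bases and Sprr1a at 146 and 116 bases. TATAAA stood in the same 5 promoters, 27 bases before the start of Lor, 30 before Prr9 and Sprr1b, 29 before Sprr2k and 43 before Sprr1a, and in 12.4% of all promoters. The composite motif matched in Lor, as TTACATCA at 171 bases, and in Sprr1b, as TTTCATCA at 156 bases, both left in lower case above. It stood in 3.45% of all promoters. No promoter of the 8 held the C/EBP letters, which stood in 9.56% of all promoters. None of these matches overlapped another. A match is a string of letters, and binding was not measured.

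The promoters of Lce1g and Lce1h are shown because these neighbours share 84.5% of their letters, more than any other pair of the 8 (the next, Sprr1b with Sprr1a, shared 52.2%). They lie on the minus strand at chr3:92752339-92752588 and chr3:92765066-92765315. They and the promoter of Tchh held none of the 4 motifs:
Lce1g: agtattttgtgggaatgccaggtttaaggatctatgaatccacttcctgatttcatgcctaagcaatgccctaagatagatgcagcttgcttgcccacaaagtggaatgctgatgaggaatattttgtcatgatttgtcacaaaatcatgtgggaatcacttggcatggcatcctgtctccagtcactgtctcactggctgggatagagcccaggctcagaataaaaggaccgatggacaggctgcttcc
Lce1h: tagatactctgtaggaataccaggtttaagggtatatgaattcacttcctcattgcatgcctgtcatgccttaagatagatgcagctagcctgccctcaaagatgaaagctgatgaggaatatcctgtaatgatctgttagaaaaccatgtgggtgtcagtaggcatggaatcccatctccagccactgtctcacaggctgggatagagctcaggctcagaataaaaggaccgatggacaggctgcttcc

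**Figure D1:**
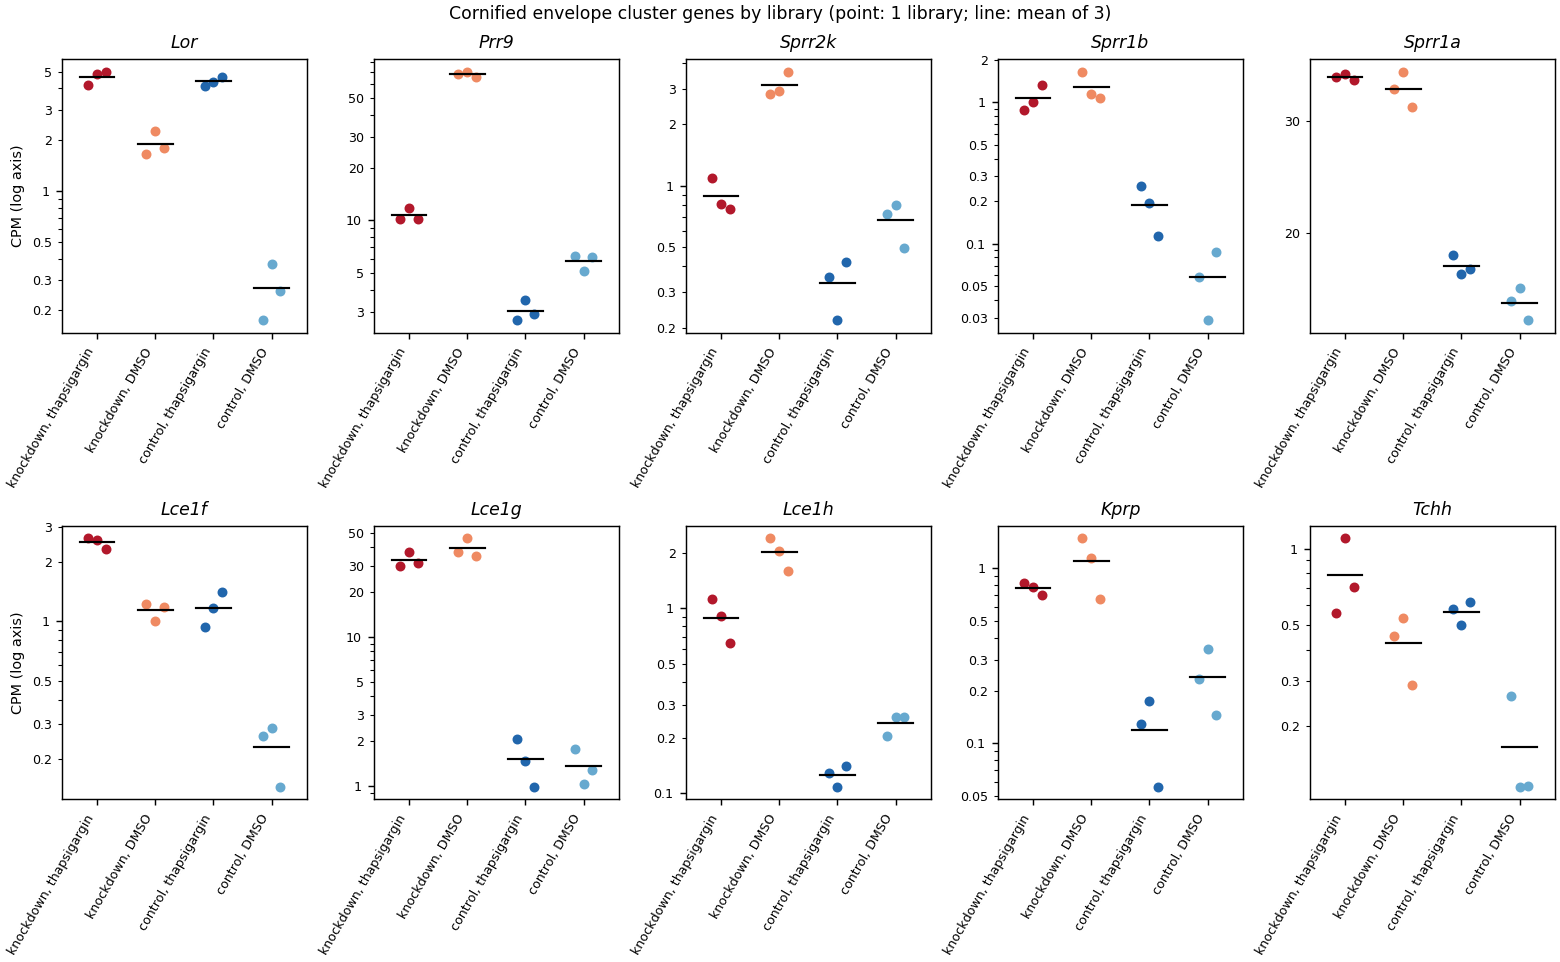
Level of each gene in every library, with genes in chromosome order and a log axis of CPM that differs between panels. Points are single libraries, lines are means of 3, and groups run from knockdown with thapsigargin at the left to control with DMSO at the right. Prr9 stands at 65.9 to 70.8 CPM in knockdown DMSO libraries and at 10.1 to 11.7 CPM in knockdown thapsigargin libraries, whereas Lor is highest in the libraries given thapsigargin.

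Lor (ENSMUSG00000043165, chr3:92080271-92083142) encodes loricrin, the main protein of the mature cornified envelope. Its level was 4.17, 4.83 and 5.02 CPM in knockdown thapsigargin libraries and 1.65, 2.24 and 1.79 CPM in knockdown DMSO libraries. Control libraries held 4.15, 4.36 and 4.69 CPM with thapsigargin and 0.175, 0.372 and 0.260 CPM with DMSO. Both thapsigargin groups therefore stood at the same height and overlapped, knockdown DMSO libraries lay below them, and control DMSO libraries, at 6 to 13 reads each, were lowest. With thapsigargin Lor rose in knockdown cells (log2 change 1.30, SE 0.16, adjusted p = 1.28e-08). In control cells it also rose (log2 change 4.01, SE 0.23, adjusted p = 5.74e-17), and this was the largest thapsigargin change of the 10 genes in either direction. The difference between these log2 changes, knockdown minus control, was -2.71, given without a test because it contains the comparison that chose the genes. Fewer cells that make an RNA and less of it per cell cannot be told apart in bulk libraries, here and for every gene below.

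Prr9 (ENSMUSG00000056270, chr3:92122204-92123947) encodes a small proline-rich protein and lies next to Lor among the 10 genes. It stood at 10.2, 11.7 and 10.1 CPM in knockdown thapsigargin libraries and at 68.3, 70.8 and 65.9 CPM in knockdown DMSO libraries. In control cells it was 2.67, 3.47 and 2.89 CPM with thapsigargin and 6.26, 5.13 and 6.19 CPM with DMSO. No library of any group overlapped another group, and thapsigargin libraries were the lower ones in both populations. Prr9 fell with thapsigargin in knockdown cells (log2 change -2.68, SE 0.076, adjusted p = 1.07e-24) and in control cells (log2 change -0.94, SE 0.11, adjusted p = 6.05e-09). The neighbours Lor and Prr9 thus moved in opposite directions with thapsigargin in both populations. A predicted gene on the same strand, AC138676.1, overlaps Prr9, and it had no read. The deposited counts set aside 6.47% to 6.88% of reads per library as ambiguous between genes. Reads from this overlap may be among them and so be missing from Prr9.

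The SPRR proteins are short proline-rich bridges between other envelope proteins, and 3 of their genes are among the 10. Sprr1a (ENSMUSG00000050359, chr3:92483952-92485895) is also known from injured neurons and stressed heart muscle. It had 35.3, 35.7 and 34.9 CPM in knockdown thapsigargin libraries and 33.7, 36.0 and 31.7 CPM in knockdown DMSO libraries. The control libraries had 18.4, 17.2 and 17.5 CPM with thapsigargin and 15.6, 16.3 and 14.5 CPM with DMSO. Of the 10 genes it was the one with most reads in control DMSO libraries, 502 to 570 each, and its groups split by cell population, with a further gap between treatments in control cells alone. With thapsigargin its log2 change was 0.06 in knockdown cells (SE 0.062, adjusted p = 0.379), where the libraries overlapped. In control cells Sprr1a rose slightly (log2 change 0.19, SE 0.070, adjusted p = 0.0126). That rise did not pass when control DMSO replicate 3 was left out (adjusted p = 0.0913), when control thapsigargin replicate 1 was (adjusted p = 0.0557), or with no filter on low counts (adjusted p = 0.0668). With library size as the only scaling the change in knockdown cells became 0.18 and passed (adjusted p = 0.00915).

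Sprr1b (ENSMUSG00000048455, chr3:92436809-92438789), the nearest relative of Sprr1a, had far fewer reads. Knockdown cells held 0.881, 1.005 and 1.32 CPM with thapsigargin and 1.65, 1.15 and 1.07 CPM with DMSO. Control cells held 0.257, 0.195 and 0.112 CPM with thapsigargin and 0.0583, 0.0286 and 0.0867 CPM with DMSO, the last from 2, 1 and 3 reads. Every knockdown library lay above every control library, and among control libraries those given thapsigargin were the higher. Its log2 change with thapsigargin was -0.26 in knockdown cells (SE 0.28, adjusted p = 0.421). In control cells Sprr1b rose (log2 change 1.63, SE 0.64, adjusted p = 0.0229) over those 6 reads. No control library of Sprr1b reached the filter level. With no filter the adjusted p was 0.0481, which does not lift that limit. The rise did not pass when control DMSO replicate 2 (adjusted p = 0.0871), control thapsigargin replicate 1 (adjusted p = 0.07825) or control thapsigargin replicate 2 (adjusted p = 0.0535) was left out.

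Sprr2k (ENSMUSG00000054215, chr3:92432582-92433925) belongs to the larger SPRR2 branch. Levels were 1.09, 0.810 and 0.763 CPM in knockdown thapsigargin libraries and 2.81, 2.92 and 3.64 CPM in knockdown DMSO libraries. They were 0.354, 0.217 and 0.421 CPM in control thapsigargin libraries and 0.728, 0.802 and 0.491 CPM in control DMSO libraries. As for Prr9, the thapsigargin libraries were the lower ones in each population with no overlap, but knockdown thapsigargin and control DMSO libraries partly overlapped. Sprr2k fell with thapsigargin in knockdown cells (log2 change -1.81, SE 0.23, adjusted p = 2.80e-08) and in control cells (log2 change -1.06, SE 0.33, adjusted p = 0.00506). Without control thapsigargin replicate 2 the call in control cells was lost (-0.79, adjusted p = 0.0513).

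LCE proteins join the envelope late, beneath the cell surface, and LCE genes lie side by side in the cluster. Lce1g (ENSMUSG00000027919, chr3:92750148-92752338) had 29.7, 37.3 and 31.5 CPM in knockdown thapsigargin libraries and 37.1, 46.0 and 34.9 CPM in knockdown DMSO libraries. Control libraries had 2.06, 1.47 and 0.983 CPM with thapsigargin and 1.78, 1.03 and 1.27 CPM with DMSO. The populations stood far apart, and within each the treatments overlapped. Its log2 change with thapsigargin was -0.26 in knockdown cells (SE 0.13, adjusted p = 0.0839) and 0.13 in control cells (SE 0.32, adjusted p = 0.731). The change in knockdown cells passed under some other settings, among them limma-voom (adjusted p = 0.0112), no filter on low counts (adjusted p = 0.000605) and the fit of those 6 libraries alone (adjusted p = 0.0345). It also passed without control thapsigargin replicate 1 (adjusted p = 0.0445) or 3 (adjusted p = 0.0467), without knockdown DMSO replicate 3 (adjusted p = 0.0349), and without knockdown thapsigargin replicate 2 (adjusted p = 0.0176).

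Lce1f (ENSMUSG00000042124, chr3:92718685-92720350) behaved otherwise under thapsigargin. It stood at 2.64, 2.59 and 2.32 CPM in knockdown thapsigargin libraries and at 1.23, 1.002 and 1.19 CPM in knockdown DMSO libraries. Control libraries had 0.933, 1.17 and 1.40 CPM with thapsigargin and 0.262, 0.286 and 0.145 CPM with DMSO. Thapsigargin libraries were above DMSO libraries in each population, and the knockdown DMSO and control thapsigargin groups overlapped. Lce1f rose with thapsigargin in knockdown cells (log2 change 1.14, SE 0.22, adjusted p = 2.24e-05) and in control cells (log2 change 2.33, SE 0.31, adjusted p = 4.66e-08).

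Lce1h (ENSMUSG00000049593, chr3:92763215-92765065), the next of the 10 genes after Lce1g, had 1.12, 0.908 and 0.646 CPM in knockdown thapsigargin libraries and 2.39, 2.03 and 1.59 CPM in knockdown DMSO libraries. Control libraries had 0.129, 0.108 and 0.140 CPM with thapsigargin and 0.204, 0.258 and 0.260 CPM with DMSO, or 4 to 9 reads each. No group overlapped another. Lce1h fell with thapsigargin in knockdown cells (log2 change -1.17, SE 0.26, adjusted p = 0.000158), and in control cells its log2 change of -0.93 did not pass (SE 0.50, adjusted p = 0.0886). Among the LCE genes described, Lce1f was thus higher and Lce1h lower with thapsigargin in knockdown cells.

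Kprp and Tchh stand at the far end. Kprp (ENSMUSG00000059832, chr3:92823074-92827247) encodes keratinocyte proline-rich protein, found in the upper epidermis. Its level was 0.823, 0.778 and 0.705 CPM in knockdown thapsigargin libraries and 1.49, 1.15 and 0.665 CPM in knockdown DMSO libraries, against 0.129, 0.173 and 0.0562 CPM in control thapsigargin libraries and 0.233, 0.344 and 0.145 CPM in control DMSO libraries. All 6 knockdown libraries lay above all 6 control libraries, and treatments overlapped within each population. Its log2 changes with thapsigargin, -0.51 in knockdown cells (SE 0.33, adjusted p = 0.169) and -0.94 in control cells (SE 0.55, adjusted p = 0.121), did not pass, except in knockdown cells without knockdown DMSO replicate 3 (-0.78, adjusted p = 0.0446).

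Tchh (ENSMUSG00000052415, chr3:93442330-93449077) encodes trichohyalin and is the longest transcript of the 10, at 5823 bases. Knockdown cells held 0.558, 1.10 and 0.705 CPM with thapsigargin and 0.453, 0.531 and 0.289 CPM with DMSO. Control cells held 0.579, 0.499 and 0.618 CPM with thapsigargin and 0.262, 0.115 and 0.116 CPM with DMSO. Thapsigargin libraries lay above DMSO libraries in each population, and the thapsigargin groups overlapped each other. Tchh entered the test through the thapsigargin libraries, the ones where it was high, so its rise is not independent of the filter. It rose in control cells (log2 change 1.76, SE 0.45, adjusted p = 0.000712) and in knockdown cells (log2 change 0.88, SE 0.37, adjusted p = 0.0330). With no filter the adjusted p in control cells was 0.000603, which is not comparable with that of the main fit and does not lift this limit. The rise in knockdown cells did not pass with knockdown DMSO replicate 1 left out (adjusted p = 0.0576), with knockdown DMSO replicate 3 left out (adjusted p = 0.157), with knockdown thapsigargin replicate 2 left out (adjusted p = 0.229) or with no filter on low counts (adjusted p = 0.0605). A predicted antisense gene, Gm37245, overlaps Tchh and had 3 reads over all libraries. Reads from that overlap may likewise have been set aside as ambiguous.

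Of the 10 genes, 3 rose with thapsigargin in knockdown cells (Lor, Lce1f and Tchh), 3 fell (Prr9, Sprr2k and Lce1h) and 4 did not pass. Among all 15828 genes tested 35.4% rose and 34.4% fell in that comparison, so the shares of the 10 were near the background. Of the 3 that rose, Tchh was tested through its high thapsigargin groups, so this count is a description. Its rise did not pass in several alternatives (adjusted p up to 0.229). The same 3 genes that rose had all thapsigargin libraries above all DMSO libraries, beside 36.1% of all genes, and the 3 that fell had them all below, beside 35.3%. The median log2 change of the 10 was -0.26, against 0.0011 over all genes tested. In control cells 5 rose (Lor, Sprr1a, Sprr1b, Lce1f and Tchh), 2 fell (Prr9 and Sprr2k) and 3 did not pass, beside 37.7% and 37% of all genes. Of these 7 genes Tchh was tested through its high groups and Sprr1b through knockdown cells alone, so the counts are a description. There the libraries did not overlap for the 5 that rose, beside 38.8% of all genes, nor, in the other direction, for Prr9, Sprr2k and Lce1h, beside 38.2%. The median of the 10 there was 0.16, against -0.000425 over all genes tested. A choice made on DMSO libraries can push the median down in knockdown cells and up in control cells. Without knockdown DMSO replicate 3 the count that fell in knockdown cells was 5, without control thapsigargin replicate 1 the count that rose in control cells was 3, and without control thapsigargin replicate 2 the count that fell there was 1. These 2 comparisons use different libraries throughout.

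**Figure D2:**
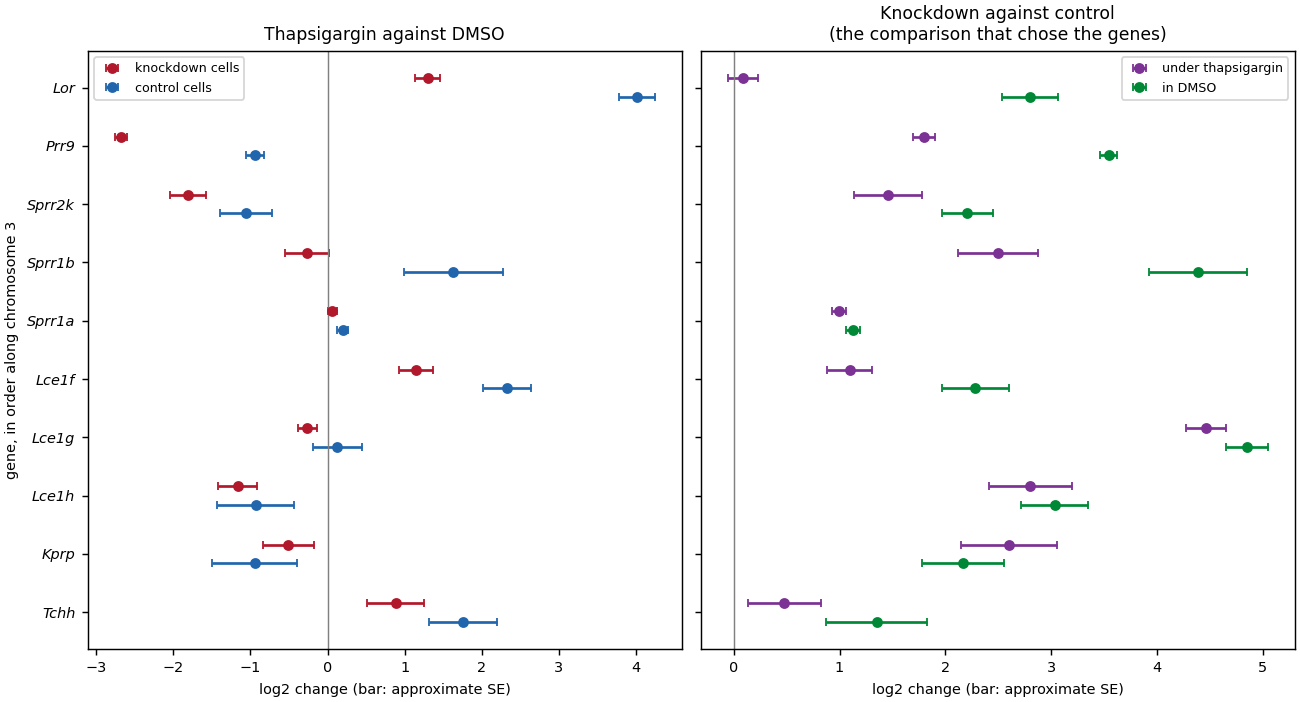
Log2 change of each gene, in chromosome order from the top, with bars of 1 approximate SE. The left panel gives thapsigargin against DMSO in knockdown cells (red) and control cells (blue), and the right panel gives knockdown against control under thapsigargin (purple) and in DMSO (green). On the left Lor lies at 1.30 in knockdown cells and 4.01 in control cells, and Prr9 at -2.68 in knockdown cells and -0.94 in control cells.

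The knockdown comparison is what the genes were picked on. In DMSO all 10 had every knockdown library above every control library, a pattern seen in 28% of all genes tested, and nothing is read from it here. The log2 differences in DMSO ran from 1.13 for Sprr1a and 1.35 for Tchh to 4.39 for Sprr1b and 4.85 for Lce1g, with a median of 2.54. Prr9 stood at 3.54, Lce1h at 3.04, Lor at 2.80, Lce1f at 2.28, Sprr2k at 2.21 and Kprp at 2.17. The value for Sprr1b rests on 127 reads in knockdown libraries and 6 in control libraries. Under thapsigargin 8 of the 10 had no overlap, beside 31.2% of all genes, and the libraries of Lor and Tchh overlapped. Differences under thapsigargin were 0.09 for Lor, 0.48 for Tchh, 0.996 for Sprr1a, 1.10 for Lce1f, 1.46 for Sprr2k, 1.80 for Prr9, 2.499 for Sprr1b, 2.60 for Kprp, 2.80 for Lce1h and 4.46 for Lce1g, with a median of 1.63. For 9 of the 10 the difference under thapsigargin was the smaller one, and Kprp was the exception. With library size as the only scaling Sprr1a was another, its difference of thapsigargin effects then being 0.026. The libraries of both comparisons are distinct, but both belong to the choice of the genes.

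Added together, the 10 genes made up 86.5 to 96.7 CPM in knockdown thapsigargin libraries, 142.7 to 163.8 CPM in knockdown DMSO libraries, 28.9 to 29.7 CPM in control thapsigargin libraries and 23.5 to 25.5 CPM in control DMSO libraries. Compared per length, as CPM divided by exon length in kilobases (RPKM), 3 genes held most of this RNA. In knockdown DMSO libraries Prr9 led with 57.8 ± 2.10 RPKM, before Lce1g with 42.5 ± 6.32 RPKM and Sprr1a with 41.9 ± 2.69 RPKM (SD, n = 3 each, as below). Lce1g and Sprr1a differed by less than their spread. Sprr2k followed with 4.91 ± 0.709 RPKM and Tchh came last with 0.0729 ± 0.0212 RPKM. In knockdown thapsigargin libraries Sprr1a led with 43.8 ± 0.480 RPKM, Lce1g had 35.5 ± 4.31 RPKM, and Prr9 was the third with 9.02 ± 0.751 RPKM. Lce1f had 3.46 ± 0.240 RPKM and Lor 2.63 ± 0.250 RPKM there. Sprr2k, Sprr1b and Lce1h, at 1.39 ± 0.275, 1.29 ± 0.273 and 1.26 ± 0.334 RPKM, did not differ beyond their spread.

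In control cells Sprr1a stood alone at the top of the per-length order, with 22.0 ± 0.779 RPKM with thapsigargin and 19.2 ± 1.13 RPKM with DMSO. Under thapsigargin Prr9 (2.54 ± 0.349 RPKM) and Lor (2.47 ± 0.154 RPKM) came next and did not differ beyond their spread, nor did Lce1g (1.63 ± 0.582 RPKM) and Lce1f (1.61 ± 0.324 RPKM). In control DMSO libraries Prr9 had 4.95 ± 0.537 RPKM, Lce1g 1.47 ± 0.411 RPKM and Sprr2k 1.06 ± 0.255 RPKM, of which Lce1g and Sprr2k were within their spread. Lor was the seventh there with 0.151 ± 0.0557 RPKM, and Tchh the last with 0.0282 ± 0.0146 RPKM.

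LCE and SPRR genes have relatives of similar sequence nearby, so the share of their sequence that a read could not place was measured from the annotated transcripts (GENCODE vM21). Of all stretches of 50 bases in the Lce1f transcript 13.8% occurred unchanged in transcripts of another gene, and so did 17.8% of those of Lce1g and 19.9% of those of Lce1h. For stretches of 100 bases these shares were 0.795%, 1.70% and 1.32%. The other 7 genes shared no stretch of 50 bases. With 25 bases Lce1h shared 59.0%, Lce1g 44.9%, Lce1f 38.4%, Sprr2k 3.75%, Lor 0.917% and Kprp 0.111%, and Prr9, Sprr1a, Sprr1b and Tchh shared none. Over whole transcripts Lce1h and Lce1j were 90.04% identical, Lce1f and Lce1i 82.8%, Lce1g and Lce1i 69.1%, Sprr2k and Sprr2e 66.3% and Sprr1a and Sprr1b 65.8%. Genome sequence outside annotated transcripts was not searched. Reads that aligned to several places were kept apart in the deposited counts, 4.11% to 5.42% of reads per library, so reads from the shared stretches may be missing from the LCE counts.

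**Figure D3:**
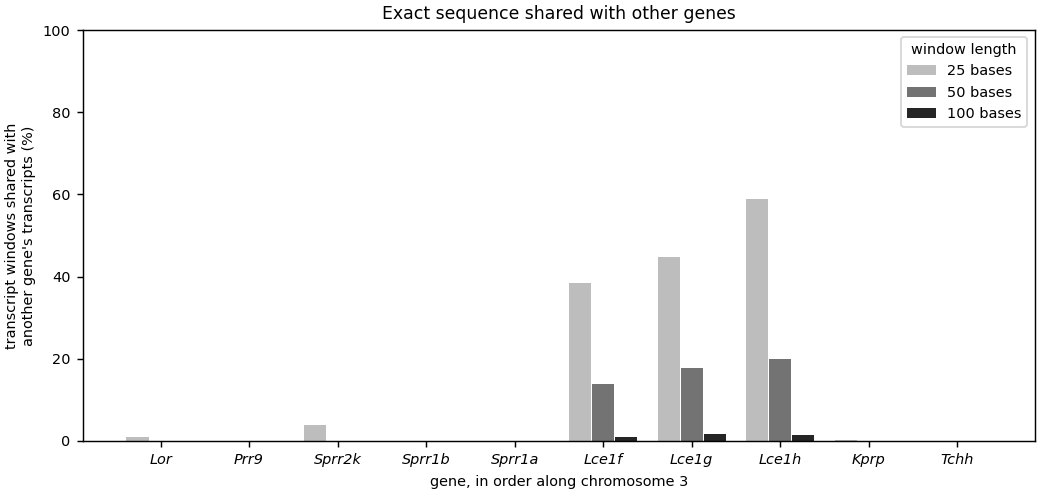
Share of each gene's transcript windows that occur exactly in an annotated transcript of another gene, for windows of 25, 50 and 100 bases (light to dark bars, percent). Lce1f, Lce1g and Lce1h reach 38.4% to 59.0% at 25 bases and under 2% at 100 bases, and the other 7 genes share no window of 50 bases.

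Sums per family do not depend on how reads were split within a family. The 2 Sprr1 genes together showed a log2 change with thapsigargin of 0.05 in knockdown cells (SE 0.062, adjusted p = 0.466) and rose by 0.20 in control cells (SE 0.069, adjusted p = 0.00867). Sprr1a held 97.0% of Sprr1 reads in knockdown thapsigargin, 96.4% in knockdown DMSO, 98.96% in control thapsigargin and 99.6% in control DMSO libraries. The 11 Sprr2 genes together fell in knockdown cells (-1.55, SE 0.11, adjusted p = 9.48e-14), and in control cells their change was -0.05 (SE 0.15, adjusted p = 0.755). Sprr2k held 16.9%, 20.3%, 10.9% and 22.4% of Sprr2 reads in those 4 groups, in the same order, and its relative Sprr2h held 57.3%, 67.04%, 15.2% and 39.6%. The Sprr1 rise in control cells did not pass when control DMSO replicate 3 was left out (0.16, adjusted p = 0.0675).

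The 14 Lce1 genes together fell by 0.23 in knockdown cells (SE 0.086, adjusted p = 0.0210) and rose by 0.63 in control cells (SE 0.18, adjusted p = 0.00290). The fall in knockdown cells did not pass with knockdown DMSO replicate 2 left out (-0.12, adjusted p = 0.198), with knockdown thapsigargin replicate 1 left out (-0.18, adjusted p = 0.0995), with knockdown thapsigargin replicate 3 left out (-0.20, adjusted p = 0.0860) or with library size as the only scaling (-0.11, adjusted p = 0.248). Lce1g held 89.8% of Lce1 reads in knockdown thapsigargin, 91.8% in knockdown DMSO, 52.0% in control thapsigargin and 73.8% in control DMSO libraries. Lce1f held 6.91%, 2.65%, 41.4% and 12.6% in those groups, and Lce1h 2.44%, 4.64%, 4.36% and 13.1%. As descriptions, the knockdown differences of the sums in DMSO and under thapsigargin were 4.54 and 3.68 for Lce1, 2.36 and 0.86 for Sprr2, and 1.18 and 1.02 for Sprr1.

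From Lor to S100a10 the annotation lists 59 genes counted here as protein-coding or as a polymorphic pseudogene, of which 18 could be tested. Besides the 10 genes these were 8 others, and 31 of the 59 had under 20 reads over all 12 libraries, 9 of them none. Measured RNA therefore came from separate points of the cluster rather than from all of it. Of 42 further genes of the complex, a list that holds the remaining SPRR and LCE genes and the filaggrin family, 5 could be tested. In knockdown against control cells Sprr2h, Crct1 and Sprr2b rose in DMSO and the other 2, Sprr2e and Sprr2g, did not pass, beside 25% of all genes that rose and 26.5% that fell. Under thapsigargin Sprr2h and Crct1 rose and Sprr2b fell, beside 28.5% and 28.4% of all genes. With thapsigargin Sprr2h, Sprr2e and Sprr2g fell in knockdown cells and 2 did not pass, while in control cells Sprr2b rose, Sprr2h fell and 3 did not pass. The falls of Sprr2g (-1.02, SE 0.46, adjusted p = 0.0480) and Sprr2e (-0.94, SE 0.34, adjusted p = 0.0139) were both lost with knockdown DMSO replicate 2 left out or with knockdown thapsigargin replicate 1 left out, where Sprr2h was the 1 gene of the list that fell. The rise of Sprr2b with the knockdown in DMSO (1.35, SE 0.57, adjusted p = 0.0469) did not pass with DESeq2 (adjusted p = 0.0588) and most other settings, the highest adjusted p being 0.162 without knockdown DMSO replicate 3. Involucrin, Ivl, an early envelope protein, and filaggrin, Flg, were too low to test, at means of 0.0979 and 0.00979 CPM in knockdown thapsigargin, 0.340 and 0 CPM in knockdown DMSO, 0.0549 and 0.0252 CPM in control thapsigargin and 0.0769 and 0 CPM in control DMSO libraries.

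**Figure D4:**
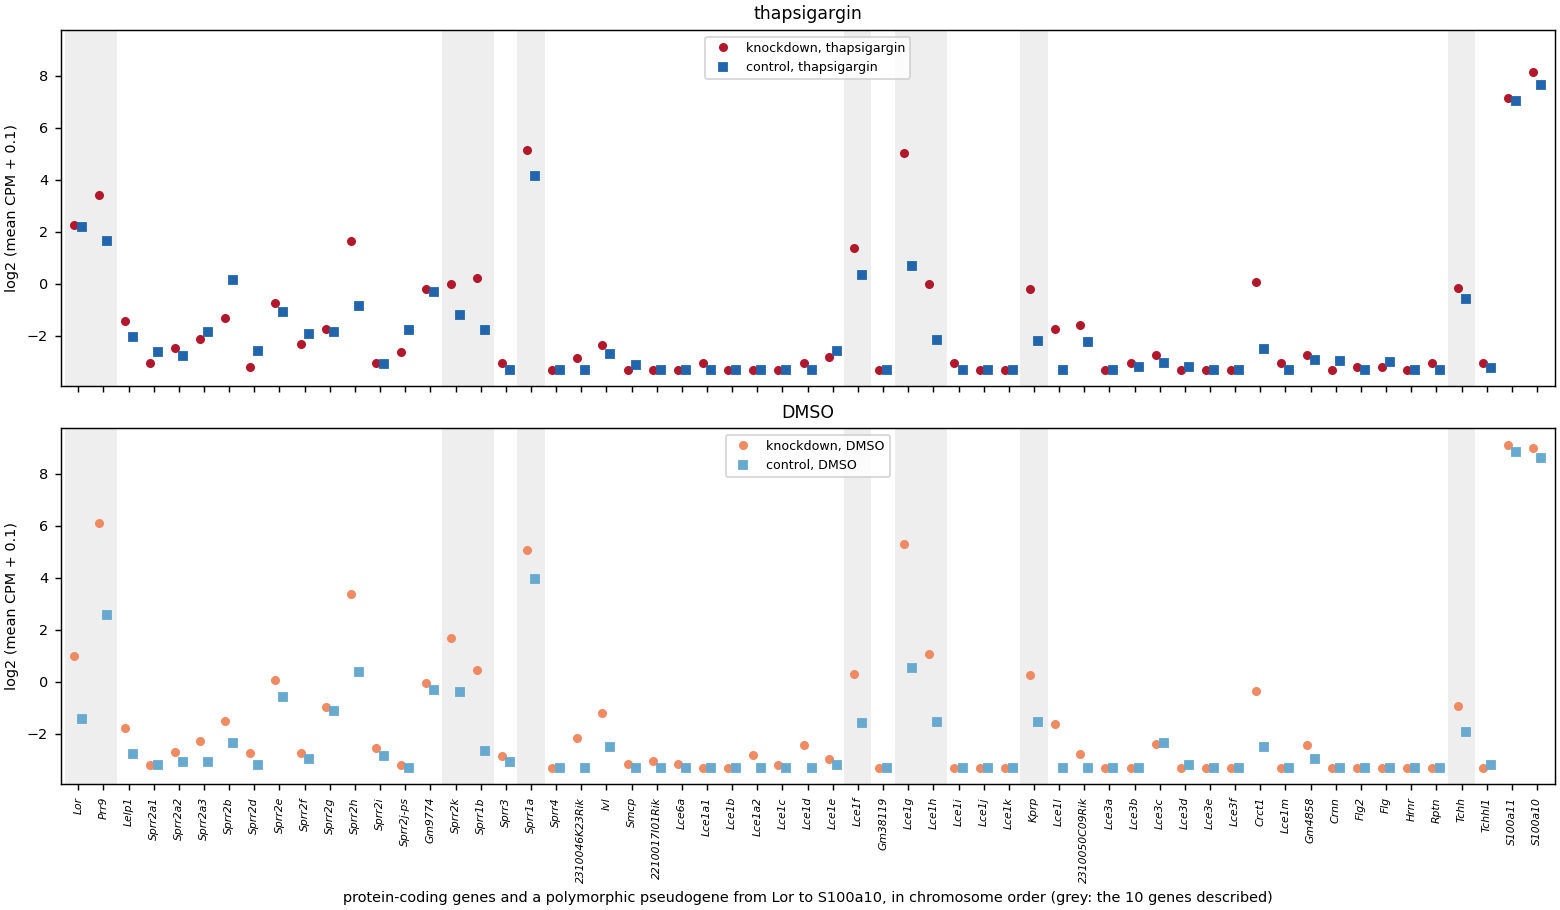
Mean level of each gene from Lor to S100a10 in chromosome order, as log2 of the mean CPM plus 0.1, with thapsigargin above and DMSO below. Circles are knockdown and squares are control cells, and grey bands mark the 10 genes. Most genes between the bands lie at or near the floor of the axis, 31 of 59 having under 20 reads, whereas Sprr2h and Crct1 lie higher in knockdown cells.

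Of those 5 genes Sprr2h had the most reads. It had 3.58, 2.496 and 2.94 CPM in knockdown thapsigargin libraries and 9.19, 12.2 and 9.60 CPM in knockdown DMSO libraries, against 0.611, 0.347 and 0.421 CPM in control thapsigargin libraries and 1.05, 1.17 and 1.36 CPM in control DMSO libraries. It was higher in knockdown cells in DMSO (log2 change 3.11, SE 0.17, adjusted p = 1.02e-16) and under thapsigargin (2.75, SE 0.23, adjusted p = 3.12e-12). Like its relative Sprr2k it fell with thapsigargin, by 1.78 in knockdown cells (adjusted p = 8.83e-13) and by 1.42 in control cells (adjusted p = 2.01e-05). Crct1, a gene between Kprp and Tchh that encodes a cysteine-rich protein, rose with the knockdown in DMSO (3.09, SE 0.53, adjusted p = 8.89e-06) and under thapsigargin (3.51, SE 0.49, adjusted p = 2.15e-07). Its control libraries held at most 6 reads each, so Crct1 entered the test through the knockdown libraries where it was high. With no filter the adjusted p was 6.74e-08 in DMSO and 1.15e-11 under thapsigargin. That fit also gave Prr9 a far smaller adjusted p for thapsigargin in knockdown cells (2.07e-278, against 1.07e-24 with the filter). Its p-values, here and for other genes, are therefore not comparable with those of the main fit. Crct1 was also named for its level in knockdown groups, and the no-filter values do not lift that limit. Sprr2b took another course, being highest in control thapsigargin libraries with 0.871 to 1.21 CPM, against 0.0583 to 0.143 CPM in control DMSO libraries, and it reached the filter level in every library of that high group alone (3.35, SE 0.45, adjusted p = 4.73e-08).

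S100 genes border the cluster and encode small calcium-binding proteins. Of 13 counted, 10 were tested. With the knockdown 3 rose and 3 fell in DMSO, and 7 rose and 2 fell under thapsigargin, whereas with thapsigargin 2 rose and 7 fell in knockdown cells and 1 rose and 7 fell in control cells. Over all genes tested 25% rose and 26.5% fell with the knockdown in DMSO, 28.5% and 28.4% under thapsigargin, 35.4% and 34.4% with thapsigargin in knockdown cells, and 37.7% and 37% in control cells, and the counts of the marker lists that follow stand beside these same shares. The 2 S100 genes lower in knockdown cells under thapsigargin became 1 with DESeq2, with library size as the only scaling, in the fit of those groups alone, with no filter, or without replicate 1 or 3 of control thapsigargin or replicate 1 or 2 of knockdown thapsigargin. The 2 that rose with thapsigargin became 1 without knockdown DMSO replicate 3. S100a7a averaged 3.99 CPM in knockdown thapsigargin, 2.53 CPM in knockdown DMSO, 1.36 CPM in control thapsigargin and 0.327 CPM in control DMSO libraries. It rose with the knockdown in DMSO (2.93, SE 0.26, adjusted p = 3.94e-11) and under thapsigargin (1.56, SE 0.19, adjusted p = 1.62e-08). S100a10 and S100a11, which lie beyond Tchh, were far more abundant, at 199.2 to 511.9 and 129.7 to 559.0 CPM over the group means. S100a16 went the other way from S100a7a with the knockdown. It averaged 33.3 CPM in knockdown thapsigargin, 46.3 CPM in knockdown DMSO, 43.7 CPM in control thapsigargin and 90.2 CPM in control DMSO libraries.

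Markers of keratinocytes and other epithelia were read beside the 10 genes, since C2C12 is no epithelial line. Of 10 epidermal keratins 6 were tested, and with the knockdown 3 rose and 1 fell in DMSO and 4 rose under thapsigargin, with 2 that did not pass each time. With thapsigargin 3 rose and 3 did not pass in knockdown cells, and 4 rose and 2 did not pass in control cells. The 4 became 2 without control DMSO replicate 3 or control thapsigargin replicate 3, and the 3 that rose with the knockdown in DMSO became 1 in the fit of those groups alone. Their summed level was 32.1 to 36.9 CPM in knockdown thapsigargin, 20.9 to 24.1 CPM in knockdown DMSO, 23.0 to 27.1 CPM in control thapsigargin and 21.0 to 21.2 CPM in control DMSO libraries, most of it Krt14, a keratin of basal keratinocytes. Krt1, Krt2, Krt6a and Krt6b, made by differentiated or wounded keratinocytes, had no read in any DMSO library. In each thapsigargin group all 10 keratins had at least 1 read. Krt16 rose with the knockdown in DMSO (0.67, SE 0.19, adjusted p = 0.00383) and under thapsigargin (0.74, SE 0.16, adjusted p = 0.000192).

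Of 8 general epithelial markers 6 were tested, of which 4 rose and 2 did not pass with the knockdown in DMSO and 5 rose and 1 fell under thapsigargin. With thapsigargin 3 rose and 3 did not pass in knockdown cells (5 rose with library size as the only scaling), and 4 rose and 1 fell in control cells. Their sum was 29.6 to 34.0 CPM in knockdown thapsigargin, 23.0 to 24.2 CPM in knockdown DMSO, 15.3 to 16.7 CPM in control thapsigargin and 14.7 to 17.1 CPM in control DMSO libraries, mostly Krt19. Across the alternative settings, Krt18 was higher in knockdown cells by 2.87 to 4.74 in log2 in DMSO and Krt7 by 2.11 to 3.63. Under thapsigargin Krt18 was higher by 1.32 to 1.58, Krt8 by 1.27 to 1.67 and Krt7 by 1.32 to 1.93. Esrp1 was the 1 marker that fell there (-3.65 to -3.02). A filter of at least 1 CPM in 3 libraries left 2 epithelial markers that rose with the knockdown in DMSO. Under thapsigargin it left 3 that rose and 0 that fell. Epcam, a defining marker, averaged 0.0196 and 0.0216 CPM in knockdown thapsigargin and knockdown DMSO libraries, from 2 reads each, and had no read in either control group. Among 23 envelope and barrier genes elsewhere in the genome, such as transglutaminases and desmosomal plaque genes, 13 were tested. With the knockdown 7 rose and 3 fell in DMSO and 5 rose and 4 fell under thapsigargin, and with thapsigargin 6 rose and 5 fell in knockdown cells and 7 rose and 5 fell in control cells. The part that cells of another type have in the levels of the 10 genes was not tested.

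Of 16 transcription regulators of the epidermis 13 were tested, of which 8 rose and 2 fell with the knockdown in DMSO and 4 rose and 5 fell under thapsigargin. With thapsigargin 9 rose and 1 fell in knockdown cells and 10 rose and 1 fell in control cells. Zfp750, a driver of terminal keratinocyte differentiation, averaged 5.11 CPM in knockdown thapsigargin, 0.483 CPM in knockdown DMSO, 1.35 CPM in control thapsigargin and 0.0676 CPM in control DMSO libraries. It rose with the knockdown in DMSO (2.78, SE 0.51, adjusted p = 3.00e-05) and under thapsigargin (1.93, SE 0.19, adjusted p = 2.61e-10). Myoblast markers were present throughout, all 10 of 10 tested, with a sum of 1974 to 2067 CPM in knockdown thapsigargin, 2095 to 2205 CPM in knockdown DMSO, 2052 to 2124 CPM in control thapsigargin and 2541 to 2768 CPM in control DMSO libraries. With the knockdown 3 rose and 5 fell in DMSO and 3 rose and 4 fell under thapsigargin, and with thapsigargin 2 rose and 6 fell in knockdown cells and 2 rose and 8 fell in control cells. The 2 that rose in knockdown cells became 1 without knockdown DMSO replicate 2 or knockdown thapsigargin replicate 1, and the 3 that rose with the knockdown under thapsigargin became 5 with library size as the only scaling. The muscle regulator Myod1 averaged 110.1 CPM in knockdown thapsigargin, 123.9 CPM in knockdown DMSO, 106.8 CPM in control thapsigargin and 150.7 CPM in control DMSO libraries. Myog, a regulator of later muscle differentiation, averaged 1.12, 0.662, 7.01 and 4.37 CPM in those groups, in the same order. Myog fell with the knockdown in DMSO (-2.73, SE 0.22, adjusted p = 6.28e-12) and under thapsigargin (-2.63, SE 0.19, adjusted p = 1.59e-13). Msc rose with the knockdown across the alternative settings, by 0.61 to 0.75 in log2 in DMSO and 2.23 to 2.44 under thapsigargin. Myf5 also rose, by 0.18 to 0.33 in DMSO and 0.66 to 0.86 under thapsigargin, while Vcam1 fell in DMSO (-0.50 to -0.37).

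To see which genes elsewhere ran most like the 10, the log2 levels of each gene in the 4 groups were centred on their own mean and set against the mean centred profile of the 10, by the root mean square of the 4 differences. Candidates were the 6589 genes outside all lists whose group means spanned at least 1 in log2. The closest were Gm15228, a non-coding RNA on chromosome X (0.0086), Fosb, a FOS family transcription factor on chromosome 7 (0.12), Sgip1 on chromosome 4 (0.12), Ano3 on chromosome 2 (0.14), the growth factor Fgf10 on chromosome 13 (0.14) and Akip1 on chromosome 7 (0.16). None of them lies on chromosome 3. Fosb averaged 15.8 CPM in knockdown thapsigargin, 19.3 CPM in knockdown DMSO, 3.98 CPM in control thapsigargin and 2.81 CPM in control DMSO libraries. Fgf10 averaged 8.60, 10.4, 3.14 and 2.17 CPM in those groups, in the same order. With only 4 group means to match, such likeness is a description. By the same measure Sprr1b (0.42) and Kprp (0.46) lay closest to the mean profile of the 10, and Lor (1.34) and Lce1g (1.26) farthest from it.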

How the data were processed

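Raw counts of reads per gene were deposited by the authors for 12 libraries of C2C12 cells. Per the submitters' processing notes the tools were Trim Galore, STAR 2.5.3a, bedtools 2.31.0 and DESeq2, and the builds mm10 and hg38. The sources used here name no counter, annotation release or strand setting. Reads of overlapping and antisense genes therefore cannot be told apart. Entries that name no gene held 13.3% to 14.6% of reads and were left out. Of 53801 identifiers 53706 matched GENCODE vM21.

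From these counts, edgeR 4.0.16 was run with TMM scaling, its filter (15828 genes kept, 37973 not) and its robust quasi-likelihood test across the 4 groups, with Benjamini-Hochberg adjustment over all genes tested and calls at an adjusted p under 0.05. SEs are approximate, being derived from the size of a change and its F statistic. CPM used TMM-scaled library sizes, and RPKM used merged exon lengths. Promoters came from RefSeq (GRCm38.p6). The fit was tested on simulated data. Changes were put there only into genes of higher mean level than Sprr1b, Lce1h, Kprp and Tchh, so that test does not cover genes as low as these. Alternatives were other scalings and filters, DESeq2 1.42.0, limma-voom (limma 3.58.1), fits of the compared groups alone, a replicate block, family sums and leaving out each library. Scripts ran in R 4.3.3, Python 3.11.15, pandas 2.3.3, Biopython 1.88 and matplotlib 3.10.9.

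The members, gene lists and motifs were chosen with earlier results of these data known. Genes named were the members, further genes of the complex at a group mean of at least 0.5 CPM, up to 4 genes with the largest called changes of each other list, the 6 genes of most similar profile and Cebpg. Sprr2g, Atf4, Ddit3, Hspa5, Ivl, Flg, S100a10, S100a16, Krt1, Krt2, Krt6a, Krt6b, Krt14, Krt19, Epcam and Myod1 were named after their values were seen. Of the 10 members none was left out.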

Additional observations from a re-analysis of the deposited data

Results flagged for a closer look

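The thapsigargin effect could be compared between the cell populations only for genes other than the 10. The difference of effects, knockdown minus control on the log2 scale, passed the edgeR test for 10 of the named genes. Apart from Cebpg and Sprr2b, these were named for large called changes in the comparisons that make up this difference. Sprr2b was named for its level in control thapsigargin libraries, which are part of the difference. That count is therefore a description. In all, 2794 genes were called with a positive and 2804 with a negative difference (17.7% of all genes tested each way), or 5205 and 1684 with library size as the only scaling.

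Sprr2b, an SPRR2 gene of the cluster, differed by -3.08 (SE 0.68, adjusted p = 0.000468), with a thapsigargin effect of 0.27 in knockdown cells and 3.35 in control cells. It was named and entered the test through control thapsigargin libraries alone, where it is high, so its difference is not free of that choice. With no filter the difference was -3.06 (adjusted p = 0.000229), which does not lift that limit. S100a7a differed by -1.37 (SE 0.35, adjusted p = 0.00208) and S100a13 by 0.70 (SE 0.12, adjusted p = 1.82e-05). Among envelope genes elsewhere, Cdsn, which encodes corneodesmosin, a glue protein between cornified cells, had the largest difference at -3.93 (SE 0.16, adjusted p = 1.31e-18): it averaged 2.43 CPM in knockdown thapsigargin and 5.89 CPM in knockdown DMSO libraries, and 40.8 CPM in control thapsigargin and 6.49 CPM in control DMSO libraries. Ppl, the periplakin gene, differed by -1.63 (SE 0.59, adjusted p = 0.0282), which did not pass when control DMSO replicate 1 was left out (adjusted p = 0.125), nor when control DMSO replicate 3 was (adjusted p = 0.122), nor when knockdown thapsigargin replicate 2 was (adjusted p = 0.0519).

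The epithelial regulator Grhl1 differed by -1.66 (SE 0.22, adjusted p = 1.72e-07). Of the myoblast markers, Msc differed by 1.63 (SE 0.24, adjusted p = 2.14e-06), Myf5 by 0.47 (SE 0.086, adjusted p = 8.92e-05) and Vcam1 by 0.24 (SE 0.072, adjusted p = 0.00710). Cebpg itself differed by -1.66 (SE 0.13, adjusted p = 7.07e-12).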

How the results depend on the processing

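Over the 21 or fewer alternatives per result, 569 of 585 values of the main counts and family sums were classed as unchanged. So were 4133 of 4264 values of named genes and list counts. A tested change had to keep its direction and side of the threshold. A change without a test had to move by less than the spread within groups. A count had only to stay within a fixed ratio of the main count, so 6321 against 4515 calls (below) was classed as unchanged. Library size as the only scaling put the median log2 change of all genes at 0.12 for thapsigargin in knockdown cells, 0.15 for knockdown under thapsigargin and 0.17 for the difference of effects, against 0.0011, 0.016 and 0.013 with TMM. Under it the calls split 6321 up and 3164 down for knockdown under thapsigargin (4515 and 4495 with TMM) and 5205 up and 1684 down for the difference (2794 and 2804 with TMM). The Sprr1 sum then passed for thapsigargin in knockdown cells (0.17), stood at 1.16 for knockdown under thapsigargin and at 0.0057 for the difference, and the Lce1 sum was -0.11 in knockdown cells.

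Leaving out each library in turn gave 3 to 5 members that fell and 2 to 3 that rose with thapsigargin in knockdown cells, and 1 to 2 that fell and 3 to 5 that rose in control cells. In knockdown cells the Sprr1 sum ran from -0.0035 (without knockdown DMSO replicate 3) to 0.089 and the Lce1 sum from -0.32 to -0.12. In control cells the Sprr1 sum ran from 0.16 to 0.25 and the Sprr2 sum from -0.13 to 0.060, turning to 0.060 without control DMSO replicate 2 and to 0.024 without control thapsigargin replicate 1. Changes that did not pass turned sign for Lce1g (-0.026 and -0.11, up to 0.36) and Crct1 (-0.53 and -0.73, up to 0.44) in control cells and for Sprr2b in knockdown cells (-0.021, up to 0.55). The cause of these moves was not tested. Merging each family left no count of members called. Low counts limit Sprr1b, Lce1h, Kprp and Tchh in control cells most.

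Samples with the same replicate number did not deviate together: their correlations ran from -0.030 to 0.077, and 7 of 18 comparisons matched best with the own number. With the replicate number as a block, 3 members rose and 4 fell with thapsigargin in knockdown cells, Lce1g passing (adjusted p = 0.0193), and 5 rose and 2 fell in control cells.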
